A study of Mus musculus with 2 samples.

Results

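TBX5 peaks were examined at 7 genes of the cardiac transcription factor network, namely Gata4, Gata6, Nkx2-5, Hand2, Mef2c, Mef2a and Tead1. A peak was a member when its summit lay in a window set around 1 of these genes on the mouse build mm9, and 30 of the 8849 peaks in the list qualified. The windows were chromosome 14 from 63.76 to 63.94 Mb for Gata4, chromosome 18 from 11.0 to 11.3 Mb for Gata6 and chromosome 17 from 26.9 to 27.05 Mb for Nkx2-5. They were chromosome 8 from 59.7 to 59.9 Mb for Hand2, chromosome 13 from 83.55 to 83.95 Mb for Mef2c, and chromosome 7 from 74.32 to 74.6 Mb for Mef2a and from 119.75 to 120.1 Mb for Tead1. The caller numbers its peaks along each chromosome, and no number was missing between the neighbours of any of these windows. The data come from cardiac ventricles of wild type C57BL/6 mice at 15 weeks, with no treatment, fixed with 2% formaldehyde. Chromatin was precipitated with an anti-TBX5 antibody or with a rabbit IgG and sequenced (ChIP-seq), with 2 biological replicates for each antibody per the series' design text. Analysed here was 1 merged TBX5 list. A peak is a place where the sequenced DNA fragments pile up above the control, and its summit is the highest point. No value of a single replicate and no IgG list was analysed here, so no replicate error stands behind any value, and whole ventricles hold several cell types that this list does not separate.

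TBX5 is a T-box transcription factor that heart development requires, and it acts together with GATA4 and NKX2-5 on cardiac genes. GATA4 and GATA6 are zinc finger proteins, NKX2-5 a homeodomain protein and HAND2 a basic helix-loop-helix protein of the developing ventricle. MEF2A and MEF2C are MADS-box factors of muscle genes, and TEAD1 binds the MCAT elements of muscle promoters and partners the Hippo pathway's coactivators YAP and TAZ. Factors of such a network often bind near each other's genes and near their own.

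Promoter sequence was searched for only 4 of the 7 genes. Gata4, Gata6 and Tead1 were left out of this search, so it says nothing about their promoters. The 4 genes searched were Nkx2-5, Hand2, Mef2c and Mef2a, which have 6 start sites in a RefSeq table of build GRCm38.p6. The 250 bases before each start were searched on both strands for the T-box letters AGGTGT and GGTGTG, which overlap by 5 letters when both occur in AGGTGTG. Of all 32851 promoter stretches of that length in the table, 11.8% held AGGTGT, 16.3% held GGTGTG and 22.2% held either. Among the 6 stretches of the 4 genes searched, 1 held both. It belonged to the second listed start of Mef2c, the gene whose window had no peak. The letters began 216 bases before that start. Shown are that stretch, the stretch of Nkx2-5, whose window held the highest-scoring peak of the 7, and the stretch of Mef2a, whose window held the summit with the most fragments. Capitals mark the T-box letters.
Nkx2-5, chr17:26841566-26841815, minus strand: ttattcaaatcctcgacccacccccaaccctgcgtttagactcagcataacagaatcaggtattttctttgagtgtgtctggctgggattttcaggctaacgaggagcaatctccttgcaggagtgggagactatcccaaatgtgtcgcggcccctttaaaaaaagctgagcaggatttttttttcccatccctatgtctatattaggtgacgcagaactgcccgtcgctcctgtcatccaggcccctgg
Mef2a, chr7:67372859-67373108, minus strand: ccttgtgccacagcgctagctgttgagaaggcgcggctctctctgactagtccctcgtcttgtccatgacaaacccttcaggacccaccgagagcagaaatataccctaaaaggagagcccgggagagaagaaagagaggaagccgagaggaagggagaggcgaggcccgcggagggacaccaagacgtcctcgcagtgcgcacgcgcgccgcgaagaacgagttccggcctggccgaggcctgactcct
Mef2c second start, chr13:83523406-83523655, plus strand: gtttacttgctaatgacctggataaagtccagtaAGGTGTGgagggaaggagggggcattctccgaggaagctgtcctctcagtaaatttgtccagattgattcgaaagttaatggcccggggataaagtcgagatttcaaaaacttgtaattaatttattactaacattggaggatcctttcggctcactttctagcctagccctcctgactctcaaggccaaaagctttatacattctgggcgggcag
A match of letters is a description and no binding site, and the absence of a match says only that these letters are not in this stretch. The coordinates of these stretches are on GRCm38.p6 and cannot be set against the mm9 coordinates of the peaks. An mm9 genome and annotation were not used here, so neither the sequence under a peak nor its place in an exon, intron or promoter was analysed. The protein-coding neighbours in the GRCm38.p6 gene table are Neil2 and Blk for Gata4, Mib1 and Rbbp8 for Gata6, Bnip1 and Kifc5b for Nkx2-5, and Fbxo8 and Scrg1 for Hand2. They are Cetn3 and Tmem161b for Mef2c, Lysmd4 and Lrrc28 for Mef2a, and Parva and Rassf10 for Tead1. A peak in a window may therefore lie closer to such a neighbour than to the named gene.

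TBX5 peaks were found in 6 of the 7 windows. Tead1 had 7, Gata4 and Nkx2-5 had 6 each, Gata6 and Mef2a had 5 each, Hand2 had 1 and Mef2c had none. Since the windows differ in width, they were also compared per 100 kb. Nkx2-5 came first with 4.0 peaks per 100 kb (95% exact Poisson interval 1.47 to 8.71) and Gata4 next with 3.33 (1.22 to 7.26). With windows 50 kb wider on each side the order turned, to 2.86 at Gata4 and 2.40 at Nkx2-5. Tead1 had 2.00 (0.804 to 4.12), Mef2a 1.79 (0.580 to 4.17) and Gata6 1.67 (0.541 to 3.89). Hand2 had 0.5 (0.0127 to 2.79), and the count of 0 at Mef2c allowed up to 0.922. The intervals of the first 6 overlap, so their order is not settled by these counts. The interval of Mef2c lay below those of Nkx2-5 and Gata4 and overlapped all others. These intervals treat peaks as independent, which grouped peaks are not, and are therefore too narrow.

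**Figure D1:**
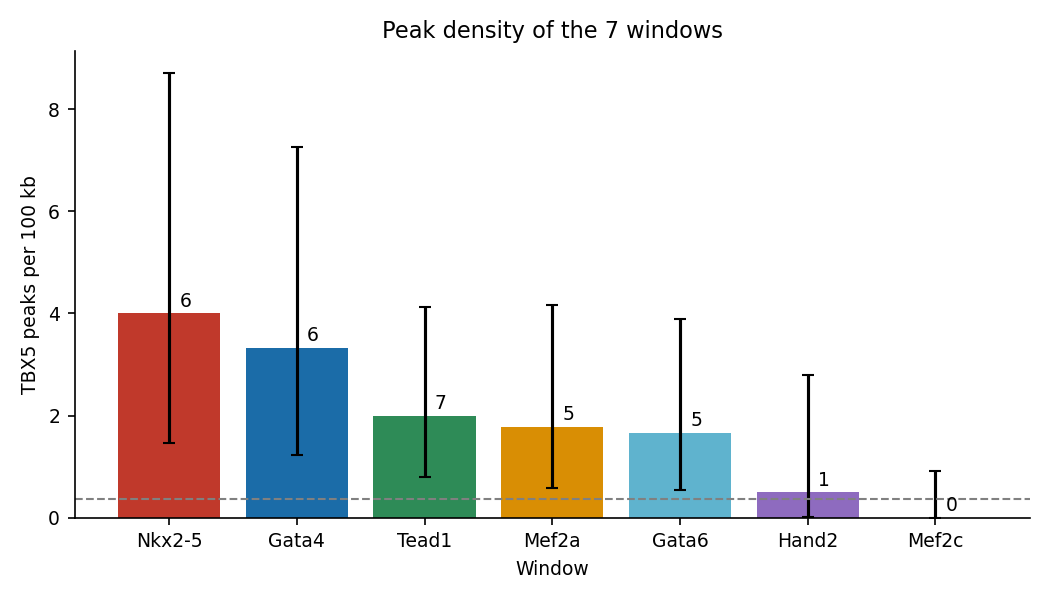
TBX5 peaks per 100 kb in each window (bars, with the number of peaks above) and 95% exact Poisson intervals, with the mean over windows of chromosomes 1 to 19 as a dashed line. Nkx2-5 and Gata4 stand at 4.0 and 3.33 with wide intervals, while Hand2 is near the dashed line and Mef2c is at 0.

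Each window was set beside every window of its own width, moved along chromosomes 1 to 19 in steps of 10 kb between the first and last peak. On average these windows held 0.366 to 0.367 peaks per 100 kb. At least as many peaks as at Nkx2-5 were held by 0.91% of windows of 150 kb, and at least as many as at Gata4 by 1.35% of windows of 180 kb. The corresponding shares were 3.25% for Tead1 (350 kb), 5.11% for Mef2a (280 kb), 5.76% for Gata6 (300 kb) and 35.1% for Hand2 (200 kb). The fullest such windows held 18 to 24 peaks. Of the windows of 400 kb, 49% held no peak, like that of Mef2c. The lone peak at Hand2 and the empty window at Mef2c were thus near what windows of the genome have at large. Such windows include stretches poor in genes and assembly gaps, and they overlap each other, so the shares describe the list and test nothing.

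**Figure D2:**
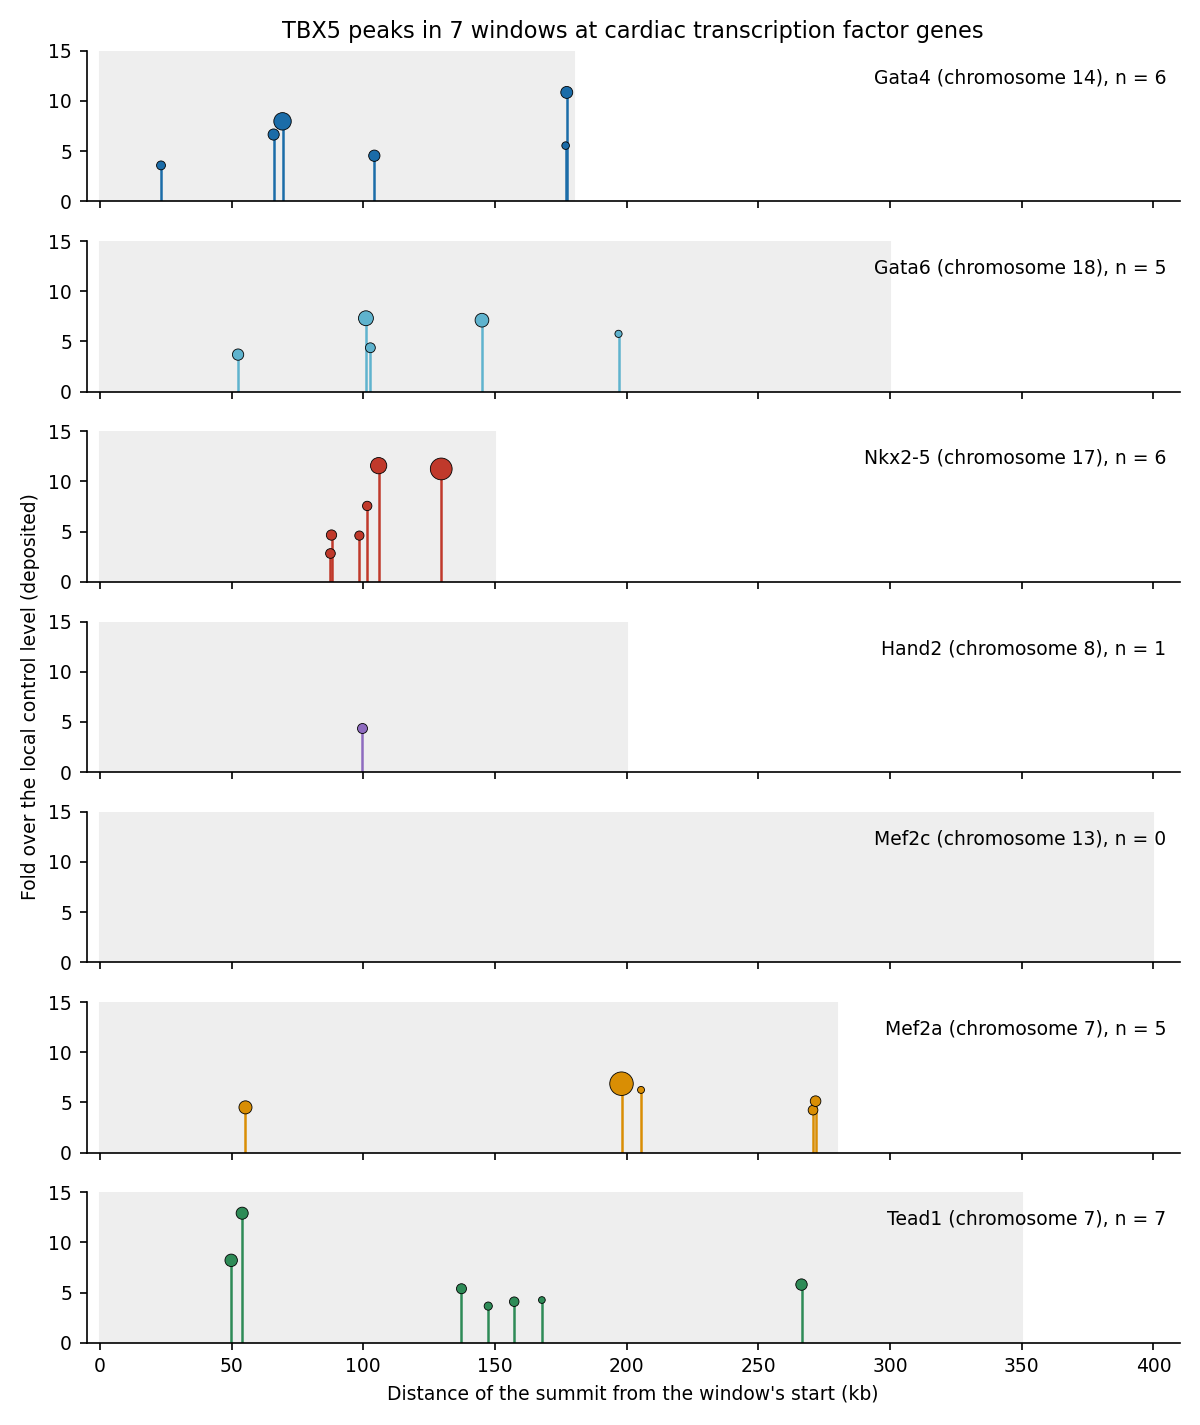
Summits of the 30 member peaks by distance from the window's start (kb) and deposited fold, with the point area proportional to TBX5 fragments at the summit and the window shaded. The Nkx2-5 peaks sit within 42.1 kb of each other, the peaks of the other windows with several lie further apart, and the Mef2c window is empty.

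Peak strength is given in 3 ways. The fold is the authors' deposited enrichment over the local control level, from a control library that the labels do not name. The number of TBX5 fragments at the summit and the control level, in fragments per position, were worked out from the deposited fold together with −log10 p. Fragments are given before the scale of 0.787 that enters the fold. Their ratio to the control level is therefore not the fold. The lowest control level, 1.18, was the list's background value and was taken as the minimum for every peak. At peaks with this level the fold is over that floor, not over a level particular to the site. The score is 10 times the deposited −log10 q, cut to a whole number. Intervals on fragments are 95% exact Poisson intervals that cover counting error only. The median fold of the 30 peaks was 5.47 (range 2.82 to 12.9), beside 5.52 in the whole list. Folds of at least 10 were seen at 4 of 30 member peaks (13.3%, exact binomial interval 3.76 to 30.7) and at 13.7% of all peaks. The medians were 36 TBX5 fragments and a local control of 5, beside 32 and 3.5 in the whole list. A control level of 5 or more was found at 17 of 30 member peaks (56.7%) and at 35.7% of all peaks, and 60 or more TBX5 fragments at 6 of 30 (20%) and at 13.4% of all. The interval of the share with 60 or more fragments, 7.71 to 38.6%, holds the share of the whole list, and the interval for the control level runs from 37.4 to 74.5%. These intervals treat peaks as independent. Among peaks with a −log10 q of at least 5, the median fold was 5.78 at the members and 6.49 in the list, and folds of at least 10 made up 15.4% and 19.1%. A −log10 q of 5 or more was reached by 26 of 30, beside 71.7% of all peaks.

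**Figure D3:**
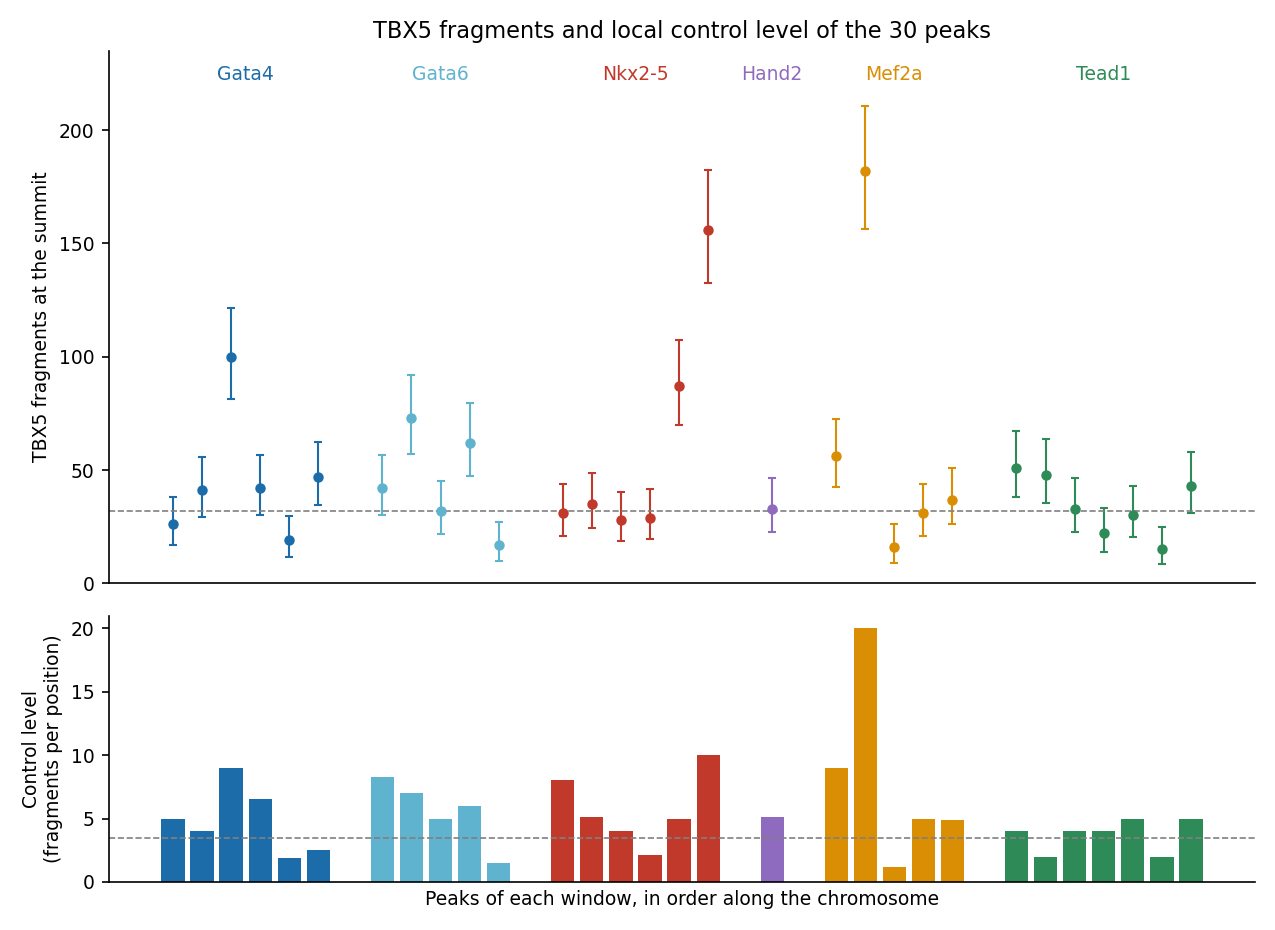
TBX5 fragments at each summit with 95% exact Poisson intervals (top) and the local control level in fragments per position (bottom) for the 30 peaks, in order along each window, with the medians of the whole list as dashed lines. A Mef2a summit at 182 and a Nkx2-5 summit at 156 stand above all others, and the Mef2a summit has the highest control level, 20.

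At Gata4, whose product is a core partner of TBX5 in the heart, the 6 peaks had folds from 3.58 to 10.8. The highest-scoring lay on chromosome 14 from 63829214 to 63829472, with 100 TBX5 fragments (81.4 to 122) against a local control of 9 and a fold of 7.97. A weaker peak from 63825879 to 63826099, 3.37 kb away by summit, showed a fold of 6.65 on 41 fragments (29.4 to 55.6). The fragment intervals of these neighbours do not overlap, while the fold intervals do (6.5 to 9.67 and 4.83 to 8.95 with the control level held fixed), and the control level was 4 at the weaker peak. The highest fold of the window, 10.8, belonged to a peak from 63937152 to 63937437 with 47 fragments (34.5 to 62.5) against a local control of 2.5. Beside it, with the summit 0.431 kb away, a peak from 63936742 to 63937000 had a fold of 5.55 on 19 fragments (11.4 to 29.7). This pair lies at the far end of the window, 2.73 and 3.16 kb from its limit. The remaining peaks stood alone, from 63864159 to 63864330 with 42 fragments and a fold of 4.54, and from 63783114 to 63783335 with 26 fragments and a fold of 3.58. Beyond the limit the series of peaks went on, with a fold of 4.50 at 17.5 kb and of 8.38 at 47.5 kb outside. On the near side the first peak outside lay 64.8 kb away and had a fold of 2.56.

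At Gata6, which codes for the close relative of GATA4 in heart and endoderm, none of the 5 peaks reached a fold of 8. The strongest by score was on chromosome 18 from 11100873 to 11101180, with 73 fragments (57.2 to 91.8) against a local control of 7 and a fold of 7.30. Its neighbour from 11102573 to 11102784 showed a fold of 4.36 on 32 fragments (21.9 to 45.2). A broad peak from 11144567 to 11145345 was 779 bp wide, rank 29 by width in the list, with its summit at 65.5% of the width, 62 fragments (47.5 to 79.5) and a fold of 7.11. The fragment intervals of the strongest and the broad peak overlap, so these summits are not ordered. A peak from 11052394 to 11052597 had 42 fragments against the highest local control of the window, 8.25, and the lowest fold, 3.68. The last, from 11196876 to 11197003, had 17 fragments (9.90 to 27.2) against a local control of 1.5, for a fold of 5.75. Its fold interval, 3.52 to 8.96 with the control level held fixed, overlaps those of the peaks with 42 and 32 fragments (2.68 to 4.94 and 3.04 to 6.09), so their folds are not ordered. Outside the window the nearest peaks lay 101 kb before and 73.5 kb after it, with folds of 7.33 and 3.66.

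Nkx2-5, the homeodomain gene whose product binds DNA with TBX5, had 6 peaks within 42.1 kb, the shortest such span of the windows with several peaks. The highest-scoring peak of all 7 windows lay on chromosome 17 from 27029433 to 27029929, at rank 177 of 8849 by score. It was 497 bp wide and held 156 fragments (132 to 182) against a local control of 10, for a fold of 11.2. The second, from 27005687 to 27006136, had 87 fragments (69.7 to 107) against a local control of 5 and a fold of 11.6. Their fragment intervals do not overlap, yet the folds, 9.56 to 13.1 and 9.30 to 14.2 from counting error with the control level held fixed, nearly coincide. The second was the last of a group of 5 peaks in 18.9 kb, stitched at gaps of up to 12.5 kb and starting at 26987281. The other members of the group were weaker, with 29 fragments and a fold of 7.56 from 27001412 to 27001574, and 28 fragments and 4.60 from 26998432 to 26998661. The first pair had 35 fragments and a fold of 4.66 from 26987781 to 26988072, and 31 and 2.82 from 26987281 to 26987560. The summit of that last peak lay at 97.9% of its width, on the side of its neighbour 0.4 kb away. Whether the pair forms 1 enriched region was not tested. The first 87.6 kb of the window held no summit, and the nearest peaks outside lay 117 kb before and 60.1 kb after it, with folds of 10.4 and 2.82.

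The Hand2 window held 1 peak, on chromosome 8 from 59799606 to 59799734. HAND2 is needed for growth of the right ventricle in the embryo. The peak was 129 bp wide, close to the narrowest of the list at 125 bp, and had 33 fragments (22.7 to 46.3) against a local control of 5.13, for a fold of 4.40. It lay near the middle of the window, 99.7 kb from the start. Stronger peaks stood just outside. From 59683914 to 59684168, 16.0 kb before the window, a peak had a fold of 17.5 from 47 fragments (34.5 to 62.5), with the control at the list's floor of 1.18. That fold is higher than that of any of the 30 members, and its counting interval of 12.9 to 23.1 overlaps that of the strongest member by fold. A peak from 59947540 to 59947722, 47.6 kb after the window, had 66 fragments (51.0 to 84.0) against a local control of 8 and a fold of 5.88. With windows 50 kb wider on each side Hand2 had 4 peaks in place of 1, so its low count rests on the window limits.

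The MEF2 genes had 0 and 5 peaks, and their intervals per 100 kb overlap. Mef2c, a gene of early heart and muscle formation, had no TBX5 peak in its window of 400 kb, and none with the window 50 kb wider on each side. The peak-free stretch around it ran on chromosome 13 from 82578553 to 85389793, 2.81 Mb, with no peak number missing in it. It was the 112th longest of 8720 stretches between neighbouring peaks on chromosomes 1 to 19, and stretches at least as long made up 21.4% of the spans of these chromosomes. The stretch ended at a peak with a fold of 11.7 on 31 fragments, 972 kb before the window, and at one with a fold of 4.08 on 10 fragments, 1440 kb after it. A site enters the list only past a q threshold, so the list does not show that TBX5 is absent there.

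At Mef2a, a MEF2 gene active in the adult heart, 5 peaks were found. The peak on chromosome 7 from 74517689 to 74518516 had 182 fragments (157 to 210), the most of the 30 and rank 19 of the list. It was also the widest, 828 bp, rank 17 of the list. With a local control of 20, the fold was 6.86 (5.91 to 7.93 with the control level held fixed), below the interval of 9.56 to 13.1 of the top Nkx2-5 peak. The fragment intervals of these summits overlap. A peak 7.41 kb away, from 74525370 to 74525509, was its opposite, with 16 fragments (9.15 to 26.0) at the control floor of 1.18 and a fold of 6.24. The same fold range was thus reached on more than 10 times as many fragments at the first as at the second. A peak from 74375194 to 74375431 had 56 fragments against a local control of 9 and a fold of 4.50. A pair from 74590694 to 74590875 and from 74591665 to 74591922 had 31 and 37 fragments and folds of 4.23 and 5.12, 9.23 and 8.26 kb from the window's limit. Just beyond that limit followed peaks at 6.98 and 7.63 kb with folds of 3.72 and 3.53. On the other side the nearest peak outside lay 119 kb before the window, with a fold of 12.0. Widening the window by 50 kb on each side raised the Mef2a count from 5 to 9.

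At Tead1, the 7 peaks fell into a pair, a run of 4 peaks and a lone peak. The pair lay on chromosome 7. Its peak from 119803949 to 119804183 had the highest fold of the 30, 12.9 (9.61 to 17.0 with the control level held fixed), from 48 fragments (35.4 to 63.6) against a local control of 2. That interval overlaps those of both strong Nkx2-5 peaks. The other, from 119799699 to 119800218, with the summit 4.17 kb away, was 520 bp wide and had 51 fragments (38.0 to 67.1) against a local control of 4, for a fold of 8.22. About 83.3 kb further, the run of 4 went from 119887226 to 119917910, with folds of 5.39, 3.66, 4.10 and 4.27 on 33, 22, 30 and 15 fragments. The first of them was near the list's medians, with a score of 89 beside 81 and a width of 193 bp beside 202 bp. The others were narrower, 127, 134 and 125 bp, with lower scores (33, 56 and 26), and the last held the fewest fragments of all 30. The lone peak, from 120016317 to 120016602, showed a fold of 5.80 on 43 fragments (31.1 to 57.9). Outside, a peak 44.8 kb before the window had a fold of 11.9 on 46 fragments, and none followed for 557 kb after it.

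**Figure D4:**
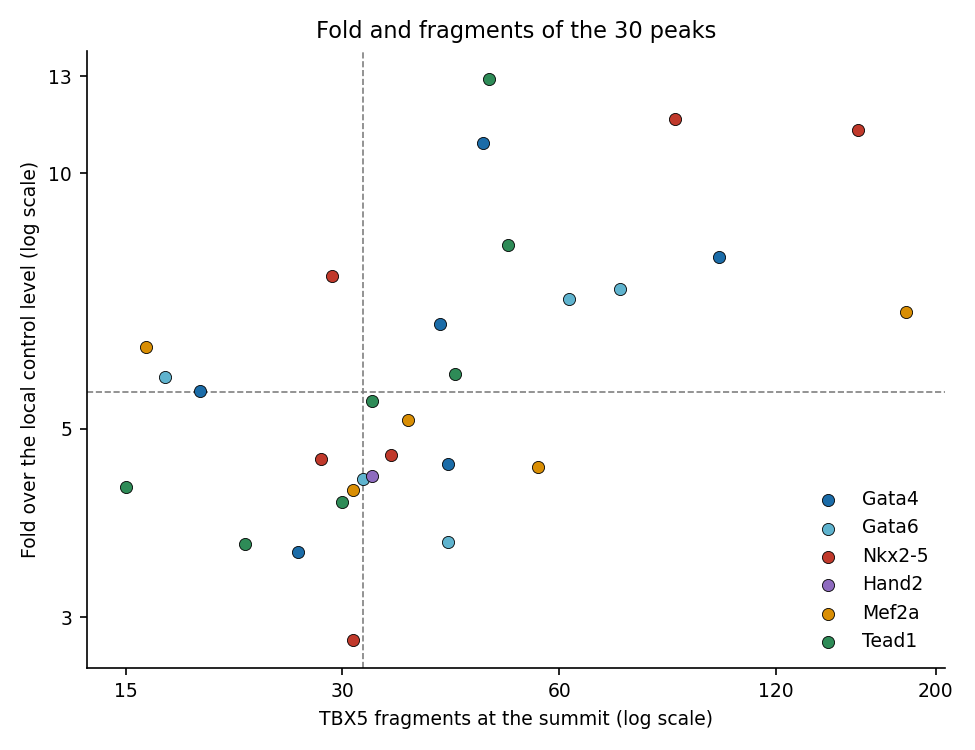
Deposited fold against TBX5 fragments at the summit (both on log scales) for the 30 member peaks by window, with the medians of the whole list as dashed lines. The Mef2a summit at 182 fragments has a fold of 6.86, while the Tead1 peak with the highest fold, 12.9, has 48 fragments.

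By their highest score the windows ranked Nkx2-5 (811), Mef2a (660), Gata4 (408), Tead1 (297), Gata6 (280) and Hand2 (67). By their highest fold the order was Tead1 (12.9), Nkx2-5 (11.6), Gata4 (10.8), Gata6 (7.30), Mef2a (6.86) and Hand2 (4.40). Mef2a went from the second place to the fifth and Tead1 from the fourth to the first. The score takes in depth and also the control level, which enters the Poisson tail behind it. The fold divides by the control level. That level was highest, 20, at the highest-scoring Mef2a peak, while the median of the window was 5, beside 6 at Gata6. Whether it accounts for the change in places was not tested. The 4 peaks with a fold of 10 or more lay at Nkx2-5 (2), Gata4 (1) and Tead1 (1).

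Member peaks were often neighbours of each other. Within the stitching distance of 12.5 kb, 21 of 30 had a neighbour (70.0%), beside 36.5% of all peaks. By window these were 6 of 7 at Tead1, 5 of 6 at Nkx2-5, 4 of 6 at Gata4, 4 of 5 at Mef2a, 2 of 5 at Gata6 and 0 of 1 at Hand2. Peaks lie closer together on average in windows with more peaks per 100 kb. The share with a neighbour is therefore not separate from the densities given above. The groups were 6 pairs, the run of 4 at Tead1 and the group of 5 at Nkx2-5. Groups of 4 or more held 9 of the 30 peaks (30%), beside 7.76% of all peaks, and all 9 came from these windows of Tead1 and Nkx2-5. This share depends on the settings. Gaps of 9.66 to 10.4 kb in the Tead1 run and of 10.4 kb in the Nkx2-5 group would break both groups when stitching at 5 kb. Some of the 9 also had a −log10 q below 5, namely 3.32 and 2.66 at Tead1 and 2.72 at Nkx2-5. In the list, 54 groups had 5 or more peaks and 143 had 4 or more. The pairs spanned 0.696 to 7.82 kb. Peaks of a group share their membership and are not independent, so no test was made of these shares.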

How the data were processed

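Measured was DNA bound by TBX5 in adult mouse ventricles, as 1 merged peak list. Reads were handled with MACS2 2.1.1.20160309.0, Bowtie2 2.2.6.2 and FastQC 0.10.0 on build mm9, per the submitters' processing notes. How replicates were merged, which control the caller used and with what settings is not given in the sources used here. In the list, the deposited values are a fold (ratio) over the local control level, −log10 p, −log10 q and a score, which was the whole part of 10 times −log10 q in 8846 of 8849 peaks. Coordinates count from 1.

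The windows, the list of members and the measures were chosen with earlier results of these data known. Window limits were compared with the summit position counted from 0. TBX5 fragments and control levels were computed from the deposited fold, (scaled pileup + 1) / (control level + 1), with −log10 p as the Poisson tail above the pileup. All 8849 peaks were solved with a scale of 0.787 and a lowest control level of 1.18 (largest difference from the deposited −log10 p 0.00023). None of the 30 members had a second solution within 0.005. In the whole list 240 peaks had one, and the closest solution was used. Fragments and control levels of the whole list rest in part on that choice. Tested on simulated data (9106 and 9567 peaks, other scales), 100% of peaks were recovered. These data were made with the same formulas, so the recovery checks the code only. Whether the unnamed control and the merging of replicates follow these formulas was not tested. Reads carry no molecular identifiers, so intervals cover counting error only. No test between groups was possible in a merged list. At each window the highest-scoring peak was described first, then peaks with a fold of 10 or more and those next to the limits. The planned list of other cardiac transcription factor genes needs mm9 annotation and was not run. Alternatives were other window limits, the middle of a peak in place of its summit, a −log10 q of at least 5, merging within 1 kb, other stitching distances and other rankings. Scripts ran on Python 3.11.15 with pandas 2.3.3, scipy 1.17.1, numpy 2.4.6 and matplotlib 3.10.9.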

Additional observations from a re-analysis of the deposited data

How the results depend on the processing

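Across 47 alternative values, 41 stayed close to the reported one, within a factor of 1.5 for a count or the 95% interval for a median or share. These intervals treat peaks as independent, which peaks of a group are not. For the main results alone, 15 stayed close and 4 moved. Some values could not move, such as the empty Mef2c window under a stricter q, or fragments from single solutions only. With the middle of a peak in place of its summit, every count was unchanged. Counts in wider windows were compared without regard to width. Nkx2-5 kept 6 peaks there and was taken as close, while its density went from 4.0 to 2.40 per 100 kb. The tally is therefore no measure of how stable the results are. With windows 50 kb wider on each side, Gata4 in place of Nkx2-5 had most peaks per 100 kb (2.86 against 2.40), Hand2 rose from 1 to 4 peaks and Mef2a from 5 to 9, and all windows together held 40 peaks. Neighbours were found for 50% of member peaks when stitching at 5 kb, where 23.9% of all peaks had one. Ranking by fold kept the strongest peak in 4 of 6 windows (not at Gata4 and Nkx2-5) and ranking by fragments in 5 of 6 (not at Tead1). Both counts include Hand2, whose 1 peak is the strongest under any ranking. Leaving out the Nkx2-5 window was added after the data were seen and gave a share of 8.33% with a fold of 10 or more, 66.7% with a neighbour and an unchanged median fold of 5.47. A merged list allows no replicate to be left out. No paired analysis was possible because replicates have no values of their own here. Sites under the q threshold are not in the list, so an empty stretch is not a sign of absent binding.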

Other observations

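The summits of the run of 4 peaks at Tead1 were evenly spaced, 10.2, 9.86 and 10.5 kb apart. This was noticed in the data and then counted over the list. Of 236 runs of 4 neighbouring summits with all spacings from 2 to 25 kb, 4 (1.69%) had spacings within a factor of 1.1 of each other, and the Tead1 run was 1 of these. The others lay on chromosome 3 from 101311493 to 101355684 (mean spacing 14.7 kb), on chromosome 5 from 24488222 to 24560027 (23.9 kb) and on chromosome 7 from 56417684 to 56462823 (15.0 kb). In the Tead1 run, the second and last peaks had a −log10 q of 3.32 and 2.66. Both fall out at the stricter limit of 5, where this even run is therefore not present. The count of even runs was not tested.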
